A study of Mus musculus with 4 samples.

Results

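SMAD4 binding was described around 10 scavenger receptor genes of mouse alveolar macrophages (AMs): Cd36, Scarb1, Scarb2, Msr1, Marco, Cd68, Olr1, Mrc1, Stab1 and Cd163. The genes were chosen by name, as receptors by which macrophages take up modified lipoproteins, lipids, bacteria and particles, and are 10 of 20923 protein-coding genes with a curated RefSeq transcript. SMAD4 was mapped by HT-ChIPmentation, in which antibody-bound chromatin is tagged with sequencing adapters while still on the beads. The AMs were sorted by FACS from bronchoalveolar lavage of wild-type C57BL/6J mice at 9 weeks of age, in aliquots of 200000 cells. There were 2 immunoprecipitated libraries (replicates 1 and 2) and 2 input libraries of the same cells, and no knockout, treated or second-tissue group. Nothing states that the replicates came from separate animals, so the spread between them may be technical. With no second condition there was nothing to test between groups, and the values below are descriptions of where peaks lay, how strong they were and how far both replicates shared them.

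Scavenger receptors are grouped into classes by structure rather than by descent. AMs use them to clear surfactant lipid, inhaled particles and microbes from the airspace. SMAD4 is the common partner of the receptor-activated SMADs: after TGFβ or BMP receptors phosphorylate those SMADs, the complex with SMAD4 enters the nucleus and binds DNA beside other transcription factors. AMs need TGFβ for their development, and the study asked where its effector binds in these cells.

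All 10 receptor genes had SMAD4 peaks in both replicates. A peak was assigned to a gene when its summit lay in the gene body or within 50 kb of a transcription start site (TSS). On this rule the genes held 52 peaks in replicate 1 and 57 in replicate 2. At least 1 peak was found by the same rule at 46.6% of all protein-coding genes in replicate 1 and at 53.4% in replicate 2. Where peaks of both replicates overlapped, by 1 bp or more, their union was taken as a shared region. There were 39 such regions at the receptor genes and 10964 in all. All 10 genes had at least 1 shared region, beside 39.1% of all protein-coding genes. In 9 of the 10 at least 1 shared region lay closer to the gene's own TSS than to any other, beside 21.5% of all genes, with Stab1 as the exception. The receptor genes were a chosen list and many are known macrophage genes, so these counts were not tested. The list was also chosen with earlier results of these data known, and the paper itself reports SMAD4 peaks at Cd36.

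The sequences of the 11 regions in the top 10% of fold enrichment of both lists are shown first, with and without a string recognised by C/EBP factors, which 7 of them held. Each is 151 bases centred on the mean summit of both replicates, in mm10 coordinates, on the plus strand of the RefSeq reference (GRCm38.p6). Capitals mark matches on either strand to the strings searched: TTGCNNAA for C/EBP factors, GAGGAAGT for PU.1, TGANTCA for AP-1, AGGTCA for nuclear receptors and TGGGAA for RBPJ.
Cd36 intron, strongest, chr5:17833947-17834097: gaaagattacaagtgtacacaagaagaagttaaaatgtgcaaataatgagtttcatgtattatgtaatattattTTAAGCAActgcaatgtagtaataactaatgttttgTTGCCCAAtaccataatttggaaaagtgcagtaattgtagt
Cd36 intron, upstream of the middle TSS, chr5:17854626-17854776: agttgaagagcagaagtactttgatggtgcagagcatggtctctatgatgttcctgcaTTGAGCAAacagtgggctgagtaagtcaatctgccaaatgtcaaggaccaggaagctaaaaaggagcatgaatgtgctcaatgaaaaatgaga
Cd36 intron, downstream of the outermost TSS, chr5:17876786-17876936: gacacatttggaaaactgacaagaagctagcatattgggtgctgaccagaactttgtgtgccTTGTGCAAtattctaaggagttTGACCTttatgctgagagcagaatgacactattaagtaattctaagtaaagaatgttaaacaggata
Cd36 intron, upstream of the innermost TSS, chr5:17839692-17839842: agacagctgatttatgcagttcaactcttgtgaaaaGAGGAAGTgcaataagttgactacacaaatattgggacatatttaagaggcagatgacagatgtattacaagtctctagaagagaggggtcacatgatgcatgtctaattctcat
Scarb2 intron, chr5:92486790-92486940: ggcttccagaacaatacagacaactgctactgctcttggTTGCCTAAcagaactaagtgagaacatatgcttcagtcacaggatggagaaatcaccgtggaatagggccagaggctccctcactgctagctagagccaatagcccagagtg
Scarb2 upstream, chr5:92524940-92525090: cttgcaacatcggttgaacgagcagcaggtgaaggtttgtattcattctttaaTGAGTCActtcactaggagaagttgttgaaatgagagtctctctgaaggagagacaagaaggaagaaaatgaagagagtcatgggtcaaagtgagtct
Marco upstream, chr1:120524269-120524419: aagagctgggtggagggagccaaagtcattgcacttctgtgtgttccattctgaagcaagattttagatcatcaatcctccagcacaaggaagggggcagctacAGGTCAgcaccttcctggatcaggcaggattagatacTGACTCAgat
Olr1 locus in Clec7a intron, chr6:129471502-129471652: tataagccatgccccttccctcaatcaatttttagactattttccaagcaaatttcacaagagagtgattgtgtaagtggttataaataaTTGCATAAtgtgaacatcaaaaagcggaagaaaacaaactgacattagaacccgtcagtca
Olr1 locus in Tmem52b intron, chr6:129515196-129515346: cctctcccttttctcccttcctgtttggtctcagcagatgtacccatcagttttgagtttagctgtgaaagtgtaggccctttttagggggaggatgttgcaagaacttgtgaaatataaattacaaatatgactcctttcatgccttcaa
Mrc1 locus in Tmem236 intron, chr2:14192267-14192417: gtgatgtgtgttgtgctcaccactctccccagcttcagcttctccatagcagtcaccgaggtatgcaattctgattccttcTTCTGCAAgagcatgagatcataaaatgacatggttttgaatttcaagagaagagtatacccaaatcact
Cd163 upstream, chr6:124273243-124273393: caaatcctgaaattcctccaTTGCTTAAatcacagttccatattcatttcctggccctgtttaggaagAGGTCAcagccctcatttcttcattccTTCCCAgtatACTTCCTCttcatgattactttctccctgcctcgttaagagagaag
In the strongest Cd36 region matches to TTGCNNAA lay at the summit and 35 bp from it. The 4 regions without TTGCNNAA were 1 each of Cd36, with the PU.1 string, Scarb2, with an AP-1 string, Marco, with the nuclear receptor and AP-1 strings, and Olr1, with none of the strings.

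A shared region covered the TSS at only 3 TSSs of the 10 genes, namely those of Cd68 and Olr1 and the innermost of Cd36. The promoters of Cd68 and Olr1, where fold enrichment was higher than at that of Cd36, are shown. Both sequences are the 250 bases before the TSS, in the direction of transcription (GRCm38.p6, minus strand), with the same strings in capitals.
Cd68 promoter, chr11:69666171-69666420: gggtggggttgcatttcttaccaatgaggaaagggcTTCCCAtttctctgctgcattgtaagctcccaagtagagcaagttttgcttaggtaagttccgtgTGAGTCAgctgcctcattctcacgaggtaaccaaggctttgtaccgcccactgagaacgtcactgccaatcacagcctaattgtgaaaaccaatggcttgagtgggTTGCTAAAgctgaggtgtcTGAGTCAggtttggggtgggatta
Olr1 promoter, chr6:129507166-129507415: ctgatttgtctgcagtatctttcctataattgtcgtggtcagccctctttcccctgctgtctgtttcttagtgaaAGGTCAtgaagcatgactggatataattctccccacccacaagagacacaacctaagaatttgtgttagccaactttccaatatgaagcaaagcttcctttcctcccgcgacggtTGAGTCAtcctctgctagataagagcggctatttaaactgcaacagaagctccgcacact
The Cd68 promoter held TGANTCA starting 149 and 24 bases upstream of the TSS and TTGCNNAA starting 43 bases upstream. It also held TGGGAA, starting 214 bases upstream. The Olr1 promoter held TGANTCA starting 60 bases upstream and AGGTCA starting 175 bases upstream. The 250 bases before the innermost Cd36 TSS, not printed, held AGGTCA and TGGGAA but neither TGANTCA nor TTGCNNAA. Over 32851 RefSeq promoters, whose sequences run to the same 250 bases, TGANTCA was found in 6.75%, TTGCNNAA in 9.56%, AGGTCA in 14% and TGGGAA in 21.6%.

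Of the class B receptors, Cd36 had the most shared SMAD4 regions, also of all 10 genes. CD36 binds oxidised LDL and takes up long-chain fatty acids. The gene (chr5:17781690-17888959, minus strand, with 3 TSSs) held 14 peaks in replicate 1 and 13 in replicate 2. These gave 10 shared regions, each with Cd36 as its nearest gene. They stretched over 69.3 kb, with 9 in introns and 1 at a promoter, and none lay outside the gene body.

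The strongest Cd36 region (chr5:17833622-17834557) was in an intron 1874 bp downstream of the innermost TSS, the one closest to the end of the gene. It had 114 fragments at its summit in replicate 1 (exact Poisson 95% interval 94.0 to 137) and 107 in replicate 2 (87.7 to 129). Fold enrichment over the control was 37.4 and 48.7, at the 99.9th and 99.7th percentile of the lists. The fragment counts of both replicates were within each other's interval. Fold enrichment was higher in replicate 2 with about the same number of fragments, beside a background level of 1.22 fragments in replicate 2 and 2.08 in replicate 1. Poisson intervals cover counting error only.

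Another 3 Cd36 regions were in the top 10% of both lists. Of these, the region 4909 bp upstream of the middle TSS had a fold of 16.6 in replicate 1 and 22.1 in replicate 2. The region 12098 bp downstream of the outermost TSS had 14.3 and 20.9. The region 3871 bp upstream of the innermost TSS had 13.1 and 25.7. These last 2 regions differed in their strings: the former held TTGCNNAA and the nuclear receptor string, and the latter the PU.1 string. The region at the Cd36 promoter was among the weakest of the gene, with its summit 38 bp upstream of the innermost TSS, 13 fragments in each replicate and folds of 4.55 and 6.32. The weakest Cd36 region had 11 fragments in each replicate. Within the gene, fold enrichment therefore spanned 3.90 to 37.4 in replicate 1 and 5.41 to 48.7 in replicate 2, and 2 of the 10 regions had the higher fold in replicate 1.

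**Figure D1:**
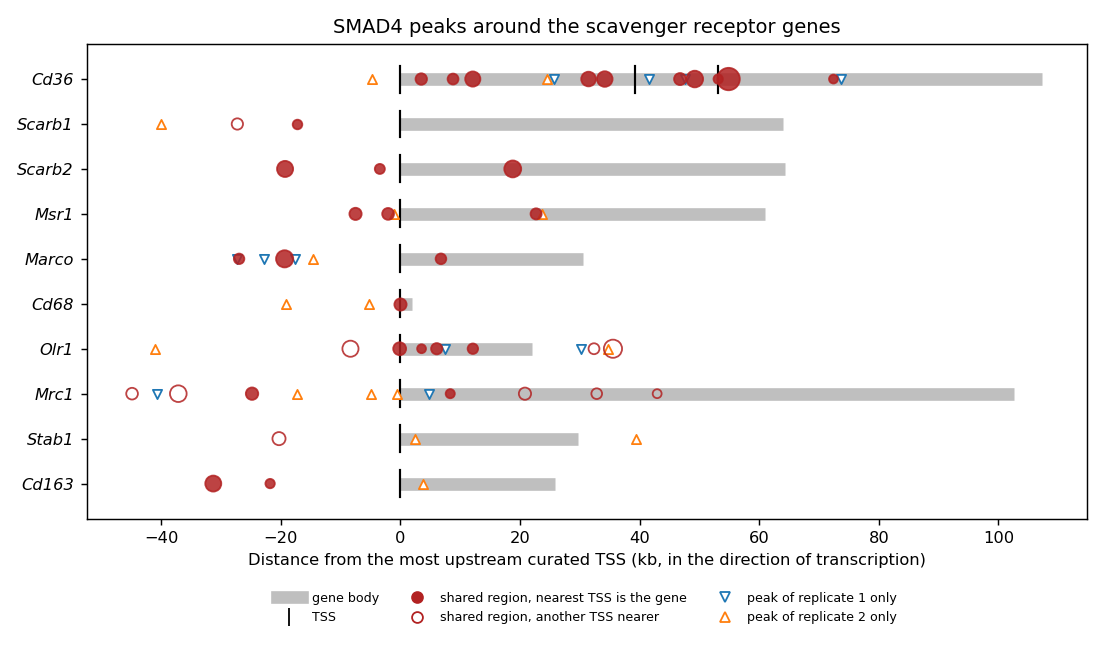
Positions of SMAD4 peaks around each gene, in kb from its most upstream curated TSS in the direction of transcription. Grey bars are gene bodies, black ticks are TSSs, red circles are shared regions (area grows with the fold enrichment of replicate 2, open where another gene's TSS is nearer) and triangles are peaks of 1 replicate. The 10 shared regions of Cd36 lie within its gene body, those of Scarb1, Stab1 and Cd163 lie upstream of the TSS, and shared regions of Olr1 and Mrc1 extend over neighbouring genes.

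By the rule on genes with the same pattern, 14 other protein-coding genes also had 10 nearest shared regions, and 43 genes including Cd36 had at least 10. The mean percentile of the strongest Cd36 region was 99.77. The closest genes in that measure were Pag1 (99.74), which encodes a transmembrane adaptor, and Klf6 (99.35), which encodes a zinc finger transcription factor. They were followed by Prkch (99.33), a protein kinase C gene, Retreg1 (98.87), which encodes an ER-phagy receptor, and Lhfpl2 (98.52). Likeness here is the count and the percentile over 2 libraries and nothing more.

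Scarb1 and Scarb2 lie on the same chromosome as Cd36 and had fewer regions. SR-BI, the product of Scarb1 (chr5:125277087-125341094), is the HDL receptor for selective uptake of cholesteryl esters. Scarb1 had 2 peaks in replicate 1 and 3 in replicate 2, giving 2 shared regions, both upstream of the gene and intergenic. The stronger (chr5:125368133-125368598), 27261 bp upstream, had 26 fragments in replicate 1 (17.0 to 38.1) and 22 in replicate 2 (13.8 to 33.3). Its folds were 8.05 and 10.4. Its nearest TSS was not that of Scarb1. The other, 17342 bp upstream, was nearest to Scarb1 and had folds of 6.50 and 6.77. A stronger region with Scarb1 as the nearest gene lay outside the window, 67202 bp downstream of the TSS and past the end of the gene (chr5:125273567-125274252), with folds of 14 and 24.4.

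LIMP-2, encoded by Scarb2 (chr5:92441311-92505657), is a lysosomal membrane protein that carries glucocerebrosidase to lysosomes. Scarb2 had 3 peaks in each replicate and all were shared and nearest to the gene. The strongest by the lower of its percentiles (chr5:92486390-92487368) was intronic, 18792 bp downstream of the TSS, with 63 fragments in replicate 1 (48.4 to 80.6) and 58 in replicate 2 (44.0 to 75). Its folds were 20.8 and 26.6. An intergenic region 19358 bp upstream was about as strong, with 64 and 52 fragments and folds of 21.1 and 23.9, and the fragment intervals of both regions overlapped in each replicate. These 2 regions differed in strings, TTGCNNAA being found in the intron and TGANTCA with GTCTGG, a SMAD-type string, upstream. A weaker region 3506 bp upstream had folds of 6.82 and 7.67 and held the PU.1 string.

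The class A receptors Msr1 and Marco each had 3 shared regions, all nearest to the gene itself. Msr1 (chr8:39581700-39642678) encodes SR-A, which binds modified LDL and bacterial surface molecules. It had 3 peaks in replicate 1 and 5 in replicate 2. The region 7454 bp upstream of the TSS (chr8:39649979-39650399) had 28 fragments in replicate 1 (18.6 to 40.5) and 27 in replicate 2 (17.8 to 39.3). Its folds were 9.42 and 12.6. The region 2075 bp upstream had folds of 10.1 and 11.7, and the region 22683 bp downstream 7.80 and 9.93. The 3 Msr1 regions were thus close in strength, with overlapping fragment intervals. The last was the only region of the 10 genes whose mean summit of both replicates lay in an exon.

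MARCO binds bacteria and inhaled particles and is abundant on AMs. Marco (chr1:120474538-120505024) had 6 peaks in replicate 1 and 4 in replicate 2. The strongest shared region (chr1:120524027-120524753) was intergenic, 19320 bp upstream of the TSS, with 48 fragments in replicate 1 (35.4 to 63.6) and 60 in replicate 2 (45.8 to 77.2). Its folds were 15.9 and 27.5. The other shared regions were 6811 bp downstream, in an intron, with folds of 7.15 and 9.02, and 27009 bp upstream, with 5.20 and 8.57. Unlike the gap between the Msr1 regions, the gap between the strongest Marco region and the others exceeded the counting intervals in both replicates. The 3 further Marco peaks of replicate 1 had 12 fragments each and no partner in replicate 2.

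CD68, of class D, is a heavily glycosylated protein of late endosomes and lysosomes and a common macrophage marker. Cd68 (chr11:69664213-69666170) is short, with 1 peak in replicate 1 and 3 in replicate 2, and its only shared region was at the promoter (chr11:69666053-69666515). The mean summit lay 126 bp upstream of the TSS, inside the promoter sequence printed above. It had 31 fragments in replicate 1 (21.1 to 44.0) and 27 in replicate 2 (17.8 to 39.3), and folds of 10.4 and 12.6. This was the strongest promoter region of the set together with that of Olr1, and their fragment intervals overlapped. The other 2 peaks of replicate 2 in the window had 14 and 9 fragments, and Eif4a1 and Tnfsf13 as nearest genes.

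The lectin-type receptors Olr1 and Mrc1 had 7 shared regions each, many of them nearer to a neighbouring gene. LOX-1, encoded by Olr1 (chr6:129485247-129507165), is an oxidised LDL receptor with a C-type lectin-like fold, in a cluster of related genes. Olr1 had 10 peaks in each replicate. Of the 7 shared regions 4 were nearest to Olr1, namely that of the promoter and 3 intronic ones. The promoter region (chr6:129507095-129507498), with its summit 146 bp upstream of the TSS, had 31 fragments in each replicate and folds of 10.4 and 14.4. The intronic regions lay 3504, 6064 and 12093 bp downstream, with folds of 3.90 to 8.12 in replicate 1 and 5.41 to 10.4 in replicate 2. The promoter was therefore the strongest of the regions nearest to Olr1, but not of its window.

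The strongest region in the Olr1 window (chr6:129471209-129472050) lay 35588 bp downstream of the Olr1 TSS in an intron of Clec7a, which encodes the β-glucan receptor dectin-1. It was 1202 bp from the Clec7a TSS. It had 66 fragments in replicate 1 (51.0 to 84.0) and 68 in replicate 2 (52.8 to 86.2), with folds of 21.8 and 31.1. A region in an intron of Tmem52b, 8106 bp upstream of Olr1, had 57 and 52 fragments and folds of 18.8 and 23.9. The peak lists cannot tell which of the neighbouring genes a region acts on, if any.

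CD206, the mannose receptor encoded by Mrc1 (chr2:14229414-14332023, plus strand), binds mannosylated glycans. Mrc1 had 9 peaks in replicate 1 and 10 in replicate 2. Of its 7 shared regions 2 were nearest to its TSS, 3 to Mir511, a microRNA gene in an Mrc1 intron, and 2 to the upstream gene Tmem236. The strongest (chr2:14191841-14192695) was 37072 bp upstream, in an intron of Tmem236, with 56 fragments in each replicate (42.3 to 72.7) and folds of 18.5 and 25.7. The 4 regions in the Mrc1 gene body had folds of 5.52 to 10.1 in replicate 1 and 5.44 to 12.6 in replicate 2. No shared region lay at the Mrc1 promoter. Replicate 2 alone had a peak there, at -693 bp from the TSS, with 17 fragments and a fold of 8.12.

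The shared regions of Stab1 and Cd163 all lay upstream of the gene. Stabilin-1, of class H, takes up modified LDL and extracellular proteins such as SPARC. Stab1 (chr14:31139017-31168641) had 1 peak in replicate 1 and 3 in replicate 2. Its shared region (chr14:31188745-31189155) lay 20255 bp upstream, in an intron of Nisch and nearer to the Nisch TSS. It had 23 fragments in replicate 1 (14.6 to 34.5) and 32 in replicate 2 (21.9 to 45.2), with folds of 7.80 and 14.9. Stab1 was thus the only member without a shared region of its own by the nearest TSS. A peak in a Stab1 intron, 2446 bp downstream of the TSS, was called in replicate 2 with 11 fragments and not in replicate 1.

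CD163, of class I, is the receptor for haemoglobin bound to haptoglobin. Cd163 (chr6:124304651-124330527, plus strand) had 3 peaks in each replicate and 2 shared regions, both intergenic and nearest to Cd163. The stronger (chr6:124272902-124273806), 31333 bp upstream, had 41 fragments in replicate 1 (29.4 to 55.6) and 51 in replicate 2 (38.0 to 67.1). Its folds were 13.6 and 23.5. The other, 21716 bp upstream, had 19 and 13 fragments and folds of 6.50 and 6.32. A peak in a Cd163 intron, 3708 bp downstream of the TSS, was called in replicate 2 alone, with 12 fragments and a fold of 4.71. Both shared regions held the PU.1 string, and the stronger also held TTGCNNAA, AGGTCA and TGGGAA.

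**Figure D2:**
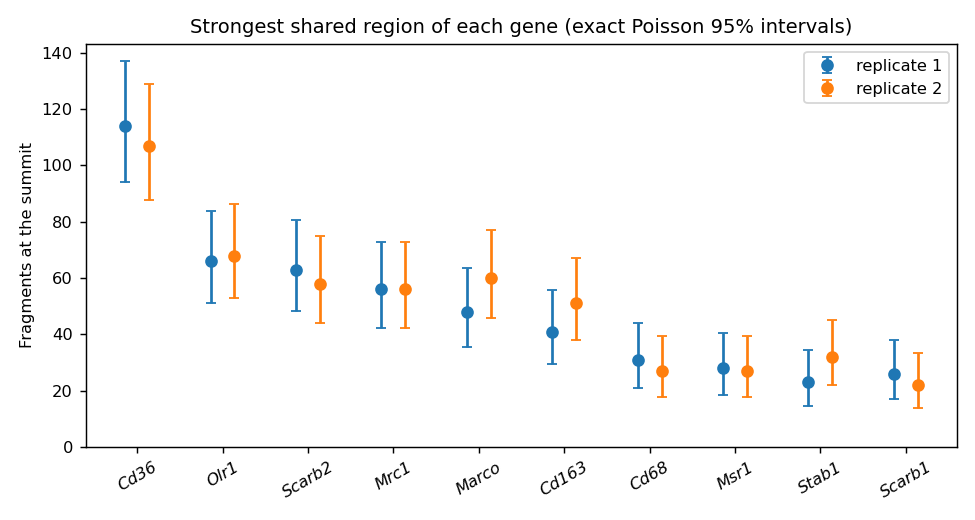
Fragments at the summit of the strongest shared region of each gene in replicate 1 (blue) and replicate 2 (orange), with exact Poisson 95% intervals that cover counting error only. Cd36, with 114 and 107 fragments, stands above Olr1, with 66 and 68, while the intervals of neighbours further down overlap.

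The order of the genes by their strongest region was Cd36, Olr1, Scarb2, Mrc1, Marco, Cd163, Cd68, Msr1, Stab1 and Scarb1, by the mean percentile of fold enrichment. Cd36 was separated from Olr1 beyond the counting intervals in both replicates. From Olr1 on, no gene was separated from its neighbour in the order, the intervals overlapping in both replicates. Stab1 had the largest difference between replicates in percentile (74.1 and 86.4), which alone spans the places of its neighbours Cd68, Msr1 and Scarb1.

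**Figure D3:**
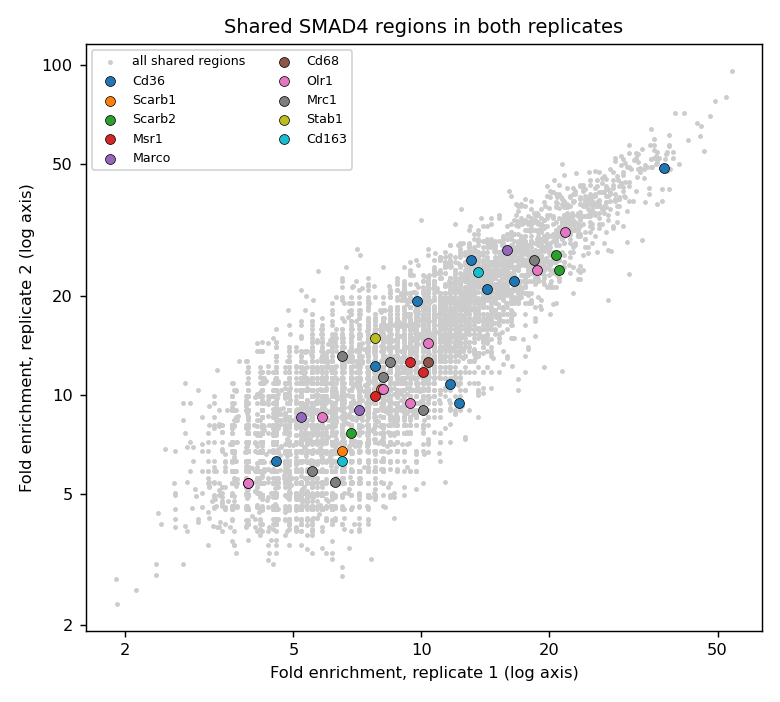
Fold enrichment of shared regions in replicate 1 (x axis) and replicate 2 (y axis), both on log axes. Grey points are all 10964 shared regions and coloured points are the 39 regions of the 10 genes, which lie between 3.90 and 37.4 in replicate 1 and between 5.41 and 48.7 in replicate 2.

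Across the 39 regions the replicates ranked binding alike, with a Spearman's rho of 0.876 for fold enrichment, beside 0.782 across all 10964 shared regions. These points share 2 libraries and are given as a description. Fold enrichment was higher in replicate 2 at 34 of the 39 regions, beside 87.2% of all shared regions, so this shift was general to the lists. The median difference in percentile between replicates was 4.66 points at the regions of the receptor genes. Of the receptor peaks, 41 of 52 had a partner in replicate 2 (78.8%, exact 95% binomial interval 65.3 to 88.9), beside 69.4% of all peaks of replicate 1. In the other direction it was 41 of 57 (71.9%, 58.5 to 83.0), beside 59.2%. Both intervals cover counting error only. The 11 peaks of replicate 1 without a partner had folds of at most 5.85 and the 16 of replicate 2 folds of at most 9.93, each below the strongest shared region of its gene in that replicate.

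The regions at the receptor genes had higher fold enrichment than shared regions in general, with medians of 9.42 and 11.7 in replicates 1 and 2, beside 6.82 and 9.48. Of the 39, 11 were in the top 10% of both lists (28.2%, 15 to 44.9), beside 12.6% of all shared regions. These were 4 regions of Cd36, 2 of Scarb2, 2 of Olr1 and 1 each of Marco, Mrc1 and Cd163. The median width was 541 bp, beside 440 bp, and the GC content of the summit windows 42.3%, beside 43.8%. Introns held 24 regions (61.5%, 44.6 to 76.6), beside 49.3% of all, and intergenic sequence 11 (28.2%, 15 to 44.9), beside 40.5%. Promoters, from 1 kb upstream to 100 bp downstream of a TSS, held 3 (7.69%, 1.62 to 20.9), beside 6.42%, a share that could not be told from the general one at this number of regions. The 10 regions of Cd36 weigh on each of these shares.

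The number of shared regions per gene was 3 in the median of the 10 genes and 0 in the median of all protein-coding genes, with means of 3.90 and 0.828. Gene length sets part of such counts, because the whole gene body was searched. Per 100 kb searched there were 3.39 shared regions at the 10 genes and 0.661 at all genes. Olr1 had the highest density, 7 per 100 kb, followed by Cd36 with 6.36 and Mrc1 with 4.59. Cd68 and Stab1 had the lowest, 1 each.

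**Figure D4:**
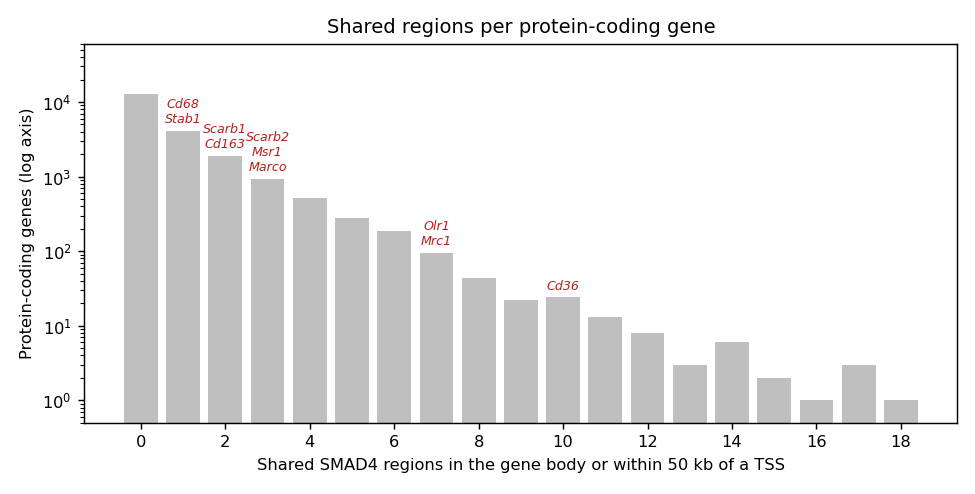
Protein-coding genes (y axis, log scale) by the number of shared SMAD4 regions in the gene body or within 50 kb of a TSS (x axis), with the 10 receptor genes named above their bars. No region was found at 12742 genes (60.9%), while the receptor genes lie at 1, 2, 3, 7 and 10 regions.

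The farthest regions inside the limit of 50 kb were 2 of Mrc1, at 44902 bp upstream, with folds of 8.12 and 11.3, and, in the gene body, at 42961 bp downstream, with 6.26 and 5.44. The closest one outside was at Scarb1, 50992 bp from the TSS, with folds of 4.55 and 5.41. Without replicate 1 or without replicate 2 all 10 genes still had peaks in the window. That was fixed in advance, because a shared region there needs a peak of each replicate.

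Within 100 bp of the summit on either side, TTGCNNAA was found at 17 of the 39 regions (43.6%, 27.8 to 60.4) and in 40.9% of all shared regions. C/EBP factors bind such sequences and are central to macrophage gene expression. In flanking windows 1 kb to each side the string was found in 4 of 78 (5.13%) and in 8.75% over all regions. Its share at the receptor genes was thus close to that over all regions, and in both the share was higher at summits than in flanks. The 17 regions belonged to 9 of the 10 genes, with Scarb1 as the exception, and included the strongest region of 8 genes. The match nearest to the summit was within 50 bp in 14 of the 17, and at a median of 18.5 bp, beside 71.6% and 31.5 bp over all regions with the string.

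The PU.1 string GAGGAAGT, recognised by the ETS factor required for macrophage development, was found at 6 regions (15.4%, 5.86 to 30.5), beside 8% of all shared regions and 1.28% of flanks. These were 2 regions of Cd36, both of Cd163 and 1 each of Scarb2 and Olr1. The string CAGGAAGT, as bound by ELF5 and sharing AGGAAGT with the former, was found at 1 region, the exonic one of Msr1, which held it at 2 positions (2.56%, as in the flanks, beside 5.62% of all shared regions). TGTGGT, for RUNX factors, was found at 11 regions (28.2%, 15 to 44.9), beside 26.4% of all and 11.5% of flanks. TGANTCA was found at 6 (15.4%), beside 12.3% and 10.3%, including the promoters of Cd68 and Olr1. CACGTG, the E-box bound by factors such as BHLHE40 and MITF, was found at 3 (7.69%, 1.62 to 20.9), namely at Scarb1, Msr1 and Marco, beside 3.65% and 1.28%.

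The SMAD-type string GTCTGG was found about as often at the summits as nearby. GTCTGG was found at 5 of the 39 regions (12.8%, 4.30 to 27.4), beside 11.2% of all shared regions and 10.3% of flanks. The palindrome GTCTAGAC was found at 0 of the 39, which allows a share of up to 9.03%. It was also found at 0 of their 78 flanks, so summits and flanks could not be compared there. Over all shared regions it was found at 0.465% of summits and 0.164% of flanks. AGGTCA was found at 4 regions (10.3%, 2.87 to 24.2) and 15.4% of their flanks, beside 15.4% of all summits and 12% of all flanks, so that the order of summit and flank was the opposite over all regions. TTCNNNGAA, for STAT factors, was found at 3 (7.69%) and 5.13% of flanks, beside 8.06% of all regions, and TGGGAA at 7 (17.9%) and 16.7% of flanks, beside 18.9% of all. Of the 39 regions 5 held none of the 11 strings searched. A match says that the letters are there and not that a factor bound them.

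**Figure D5:**
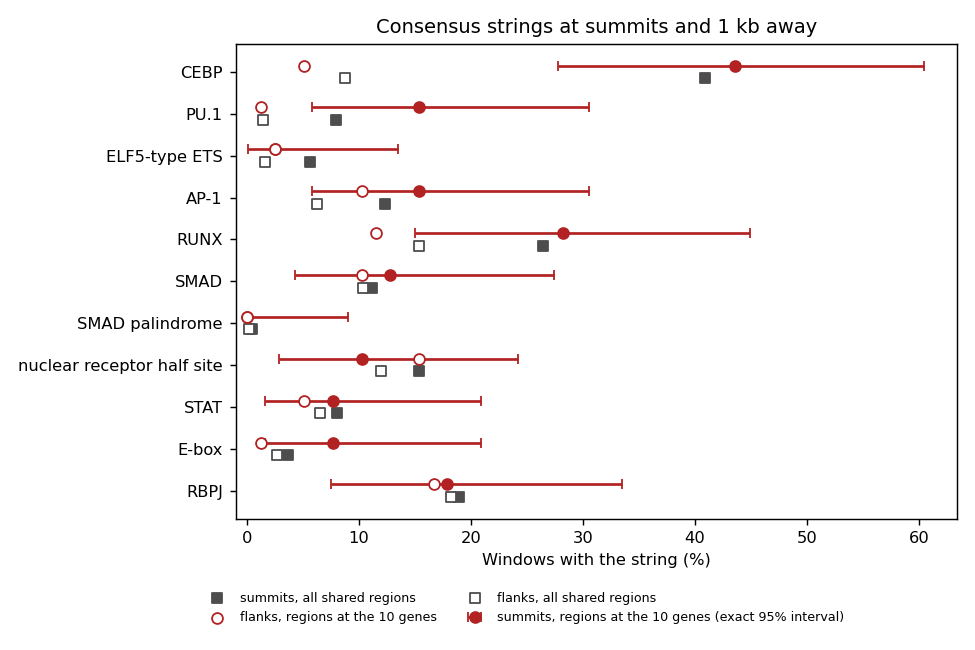
Share of windows (x axis, %) that hold each of 11 consensus strings (y axis), for the 39 regions of the receptor genes (red circles) and all 10964 shared regions (grey squares), at summits (filled) and in flanks 1 kb away (open), with exact 95% binomial intervals for the 39 summits. TTGCNNAA stands out at 43.6% of the summits and 5.13% of the flanks of the receptor genes, while the SMAD string lies at 12.8% and 10.3%.

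Of 13 further scavenger receptor genes, chosen by name as other members of the classes, 7 had a shared region and 5 had one nearest to them, against the same 39.1% and 21.5% of all genes. Those with shared regions were Clec7a with 11, Cd44 (hyaluronan receptor), Cxcl16 (membrane-bound chemokine) and Lrp1 (endocytic receptor) with 7 each, Ager with 6, Colec12 with 3 and Scarf1 with 1. Wherever a region lay, Cd44 was the nearest gene to 12, above the 10 of Cd36, Lrp1 to 6, Colec12 to 3, Cxcl16 to 1, Ager and Scarf1 to 0 and Clec7a to 2, the Clec7a window overlapping that of Olr1. The strongest regions nearest to them had folds of 21.8 and 31.1 at Clec7a, which is the region also counted for Olr1, 16.9 and 25.7 at Colec12, 16.6 and 19 at Cd44 and 16.6 and 20.8 at Lrp1, with 5.85 and 15.3 at Cxcl16, all below the strongest of Cd36. No peak was called in either replicate at Scara3, Scara5, Scarf2, Megf10, Stab2 and Lrp2. Several of these, such as Stab2 and Lrp2, are known from endothelium or epithelium rather than macrophages. Peak lists hold only positions past the caller's threshold, so that weaker binding at these genes was not detectable here.

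RNA was not measured in these libraries, and the labelled cell type could be checked only by the peaks near marker genes. All 7 AM marker genes, Siglecf, Itgax, Pparg, Car4, Fabp4, Chil3 and Plet1, had a shared region in their window. So did 3 of 8 marker genes of other lung or lavage cells, a share close to the 39.1% of all protein-coding genes. The strongest regions nearest to Pparg had folds of 33.8 and 49.6 and those nearest to Chil3 45.8 and 65.4, on either side of the value of Cd36 in replicate 1 and above it in replicate 2. Those nearest to Car4 had 30.9 and 42.9 and those nearest to Itgax 16.2 and 25.3. Plet1, with 7.15 and 10.4, and Siglecf, with 4.18 and 10.2, were lower, and Fabp4 had no region nearest to it. Markers of other cells with shared regions included Scgb1a1 of club cells, with 5 shared regions of which the strongest nearest one had folds of 7.47 and 11.3, and Pecam1 of endothelium with 3, of which the strongest nearest one had 10.7 and 16.7. Both were above Plet1 and Siglecf, so the peaks separate the cell types only in part. No shared region was found at Sftpc, Epcam, Col1a1, Cd3e or Ly6g. The part of other cells in the peaks of the receptor genes was not tested.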

How the data were processed

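The 2 SMAD4 HT-ChIPmentation peak lists were used. Per the study's methods and the processing notes, the authors used Cutadapt for trimming, Bowtie2 for alignment to mm10, PICARD and samtools to remove duplicates, and MACS3 to call peaks at q 0.05 against input, apparently per library, since each library has its own list. Which input served which library is not given in the sources used here. For each peak the authors deposited the fold ratio over the control at the summit, the −log10 p-value and −log10 q-value, the score, and the other columns, with peak ends and summit offset. The lists held 16369 and 19015 peaks, with at least 9 and 7 fragments at the summit.

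Fragments at the summit were solved from the deposited fold and p-value. All came out whole, with a largest error of 0.000516 and 0.000540 in −log10 p, and the solver was tested on simulated data. Sequencing totals were not used here. Reference data were 45657 curated RefSeq transcripts of 26089 genes on chromosomes 1 to 19 and X (GRCm38.p6, the assembly of mm10). Promoters of 8 of the 10 genes were in the promoter table used. Windows of 201 bp at the summits were scanned for each string on either strand, as were flanks centred 1000 bp away. TTCNNNGAA, CACGTG and GTCTAGAC are palindromic and counted once, as is TGANTCA. Percentiles are ranks of fold enrichment within a list. The strongest region of a gene had the highest value of the lower of its percentiles. Other genes were named where nearest to a region, from a fixed list of receptors and markers, or as having the same count of nearest regions as Cd36. The genes, lists and strings were chosen with earlier results of these data known. No test was run. Some neighbouring and marker genes are not reported here. Alternatives concerned the window, thresholds, overlap, replicates, transcripts, promoter definition and string. Python 3.11.15 was used with numpy 2.4.6, pandas 2.3.3, scipy 1.17.1, pysam 0.24.0 and matplotlib 3.10.9.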

Additional observations from a re-analysis of the deposited data

How the results depend on the processing

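Of 57 values under 14 alternative settings, 46 stayed within 1.5 times of the main value. With a window of 10 kb around the TSSs, receptor peaks fell from 52 and 57 to 33 and 36, and 7 genes kept a shared region (all but Scarb1, Stab1 and Cd163), beside 20.6% of all genes. With the gene body alone there were 26 and 25 peaks, 20 shared regions and 6 genes with a shared region (Cd68 was lost too), beside 13.9%. Shared regions nearest to a receptor gene, 30 with both replicates, came to between 41 and 46 peaks with 1 replicate left out, since no partner was then needed. A promoter of 3 kb either side of the TSS held 9 regions in place of 3. The wider string TTNNGNAA was found at 33 of the 39 regions in place of 17, and in 77.0% of all shared regions. With 50% reciprocal overlap Cd68 lost its shared region, leaving 9 genes, beside 34.5% of all genes. No paired analysis was possible because the result comes from no test and there was only 1 condition. The number of peaks depends on depth, and a region missing from a list may be bound below its threshold.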
